A study of Mus musculus with 2 samples.

Results

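Myeloid cells other than macrophages were examined in single cell RNA-seq libraries from the hearts of newborn mice. A cell was a member if it held a UMI (a molecule tag, counted once per captured transcript) of Tyrobp, which encodes a signalling adaptor of myeloid cells, and UMIs of at least 2 of the 6 genes Ccr2, Plac8, Csf3r, S100a8, Retnlg and Chil3. It also had to hold fewer than 4 of the 6 macrophage genes C1qa, C1qc, Csf1r, Fcgr1, Mrc1 and Adgre1, and no UMI of Cd3e (T cells), Cd79a (B cells), Cdh5 (endothelium) or Pdgfra (fibroblasts). Of 13502 kept cells, 399 were members, 269 of 4991 at postnatal day 1 (P1) and 130 of 8511 at postnatal day 7 (P7). Between these ages the mouse heart loses much of its ability to regenerate, and the study compared them with hypoxia and HIF signalling in view. Each age was 1 library made from the pooled hearts of 3 littermates, minced, digested with collagenase II for 20 min at P1 and 45 min at P7, treated to lyse red blood cells and sorted for about 100000 live cells on a dye that stains dead cells. No injury, treatment or transgene is named for these hearts, and the strain of these pups is not given in the sources used here. The study used both sexes but does not give the sex of these pups. The libraries held 63585504 UMIs in 7836 barcodes at P1 and 98346195 UMIs in 9077 barcodes at P7. They shared 18 barcodes, 13 of them kept cells and 0 of them members. With 1 library per age no test between ages was possible, and all intervals below are 95% intervals that cover counting error only. Age, litter, digestion time and the sex of the pooled animals cannot be told apart.

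Neutrophils are short-lived phagocytes that leave the bone marrow loaded with preformed granules, and in the newborn they also come from the liver. Their granule proteins are made in a set order during maturation, with the secondary granule proteins transcribed in precursors and largely switched off in the mature cell. Classical monocytes, marked in mice by Ly6C and CCR2, enter tissues and can become macrophages or dendritic cells, whereas non-classical monocytes patrol the vessel wall and depend on the receptor CX3CR1.

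The label was checked with markers that the rule did not use. S100a9, the partner of S100a8, was found in 77.7% of members at P1 and 52.3% at P7, against 19.4% and 4.94% of kept cells that were neither members nor macrophages. Trem1, a receptor of neutrophils and monocytes, was found in 65.1% and 55.4%, against 1.05% and 0.398%, and Ly6c2, of classical monocytes, in 34.6% and 31.5%, against 0.452% and 0.518%. Cbr2, Folr2 and Lyve1, genes of resident macrophages, were found in 0, 0 and 4 of 269 members at P1 and 0, 1 and 0 of 130 at P7. Treml4, of the non-classical monocyte list, was found in 24.2% and 33.1% of members, against 0.775% and 0.579% of other cells. Some other genes of the marker lists did not separate the members. Ace, of the non-classical list too, was found in 10.4% and 26.9% of members and 18.0% and 16.5% of other cells. G0s2, of the neutrophil list, was found in 36.1% and 31.5% of members and 30.9% and 28.2% of other cells. Apoe, an apolipoprotein of the macrophage list, was found in 50.2% and 63.8% of members, 59.6% and 40.6% of other cells and every macrophage, and Vcan, of the monocyte list, in 16.7% and 9.23% of members and 44.1% and 39.8% of other cells. Ms4a6c, of the monocyte list too, was found in 33.1% and 47.7% of members and 89.2% and 90.8% of macrophages. F13a1 and Ccl9, of that list, were found in 18.2% and 16.2%, and 27.9% and 29.2%, of members. In macrophages they were found in 64.9% and 60.9%, and 68.9% and 55.2%. Cx3cr1, of the non-classical list, was found in 14.1% and 33.1% of members and 89.2% and 94.3% of macrophages. Of the 12 macrophage genes, some of which the rule allows, 3 or more were held by 75 of 269 members at P1 and 54 of 130 at P7, most of them in the monocyte-like classes described below. The members were chosen by the UMIs of the genes of the rule, so the shares of members with those genes describe the choice and are not a result. S100a8, a calcium-binding protein of neutrophils, was found in 85.9% of members at P1 and 64.6% at P7. Csf3r, the receptor for granulocyte colony-stimulating factor, was found in 76.6% and 71.5%, and Ccr2, the chemokine receptor of classical monocytes, in 30.9% and 53.1%. Chil3, which encodes a chitinase-like protein, was found in 24.5% and 4.62%. Thinned to 1000 UMIs per cell, which left out 4 members at P1 and 2 at P7, S100a8 was found in 73.6% and 57.8%. An S100a8 UMI was also held by 12.0% of endothelial cells at P1 and 2.91% at P7 (1.68% and 0.429% after thinning). Whether free RNA was the source of these UMIs was not tested. The endothelial cells were the 1617 and 3295 cells picked for at least 2 Cdh5 UMIs and no Tyrobp UMI. Their median depth was 10896 and 8121 UMIs, against 4388 and 6098 in members.

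At the edges of the rule, the 40 members at P1 and 49 at P7 that just met it with 2 of the 6 myeloid genes held 45.6 and 30.1 S100a8 UMIs per 10000. The 39 and 28 cells just outside, with 1 of the 6 genes, held 0.532 and 9.91. The 42 and 31 members with 3 of the 6 macrophage genes held 0.0372 and 0 C1qa UMIs per 10000, and the 9 and 4 cells just outside, with 4 of these genes, held 1.57 and 1.10. S100a8 and C1qa are among the genes that set these edges, so the gaps are partly fixed by the rule and are not a result. Among cells that met every other condition, a Cdh5 UMI removed 29 at P1 and 24 at P7, and a Pdgfra UMI removed 20 and 14.

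Members made up 5.39% of kept cells at P1 (interval 4.78 to 6.05) and 1.53% at P7 (interval 1.28 to 1.81), a 3.53-fold larger share at P1 (2.85 to 4.38). Macrophages, taken as Tyrobp-positive cells with 4 or more of the 6 macrophage genes and no UMI of the 4 excluded genes, numbered 74 (1.48%) and 87 (1.02%). Of members and macrophages together, 78.4% were members at P1 (interval 73.7 to 82.7) and 59.9% at P7 (interval 53.1 to 66.5). The digestion times differed and the sort took a fixed number of live cells, so a share of a library is not a number of cells per heart.

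Clustering of the 399 members, without the genes of the lists compared below, gave 4 clusters, each of which could be named from its markers. Because the names were rebuilt from expression, they carry the ending -like. Of the clusters named neutrophil, that with the larger share of Ngp, Camp and Ltf UMIs was called granule-rich and the other mature. Mature neutrophil-like cells (137 at P1 and 47 at P7) were led by Il1b, Csf3r, Cxcr2 and Trem1. Granule-rich neutrophil-like cells (30 and 9) were led by Ngp, Camp, Ltf and Lcn2, genes of the secondary granule. They formed a cluster of their own when P1 was clustered alone (30 cells). With P7 alone there was only 1 neutrophil-like cluster, of 54 cells. Monocyte-like cells (66 and 34) were led by Ly6c2, Ccr2 and Prtn3, and non-classical monocyte-like cells (36 and 40) by Ear2, Treml4 and Adgre4. Their depths differed, with median UMIs at P1 and P7 of 2758 and 2253 in mature neutrophil-like, 8406 and 9380 in granule-rich, 11859 and 10732 in monocyte-like and 7971 and 6907 in non-classical cells.

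The classes were unequally spread over the ages. Mature neutrophil-like cells were 2.74% of kept cells at P1 (interval 2.31 to 3.24) and 0.552% at P7 (interval 0.406 to 0.734). Monocyte-like cells were 1.32% (1.02 to 1.68) and 0.399% (0.277 to 0.558), and granule-rich cells 0.601% (0.406 to 0.857) and 0.106% (0.0484 to 0.201). For non-classical monocyte-like cells the intervals overlapped, at 0.721% (0.506 to 0.997) and 0.470% (0.336 to 0.639). Among members, 62.1% were in the neutrophil-like classes at P1 (interval 56.0 to 67.9), and 43.1% at P7 (interval 34.4 to 52.0). Of all monocyte-like cells, 35.3% at P1 (interval 26.1 to 45.4) were non-classical and 54.1% at P7 (interval 42.1 to 65.7), and these intervals overlapped. Granule-rich cells were 18.0% and 16.1% of neutrophil-like cells, with intervals that overlapped (12.5 to 24.6 and 7.62 to 28.3).

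**Figure D1:**
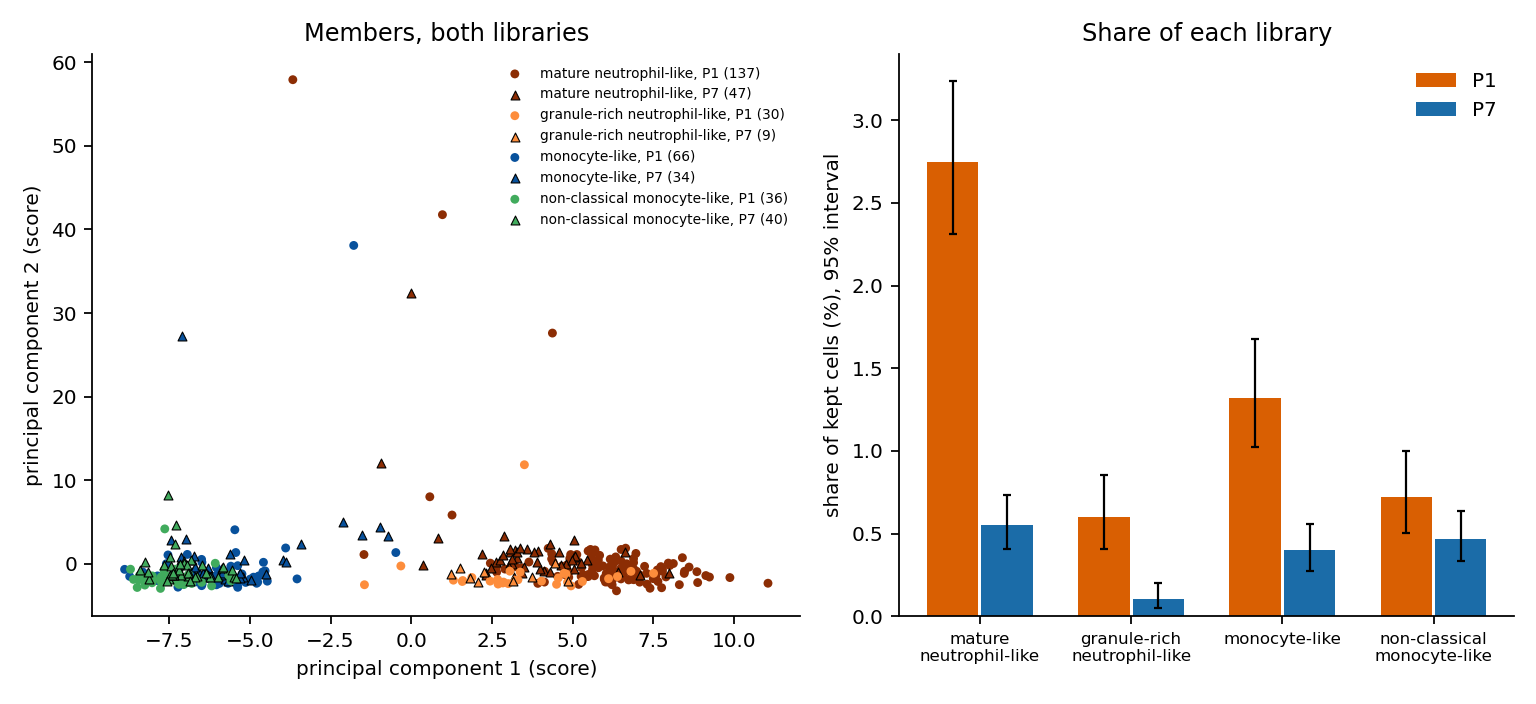
Left, the 399 members on the first 2 principal components (scores without unit), coloured by class and shaped by age. Right, the share of kept cells (%) in each class at P1 and P7, with bars for 95% counting intervals. The intervals of the mature neutrophil-like, granule-rich and monocyte-like classes do not overlap between ages, and those of the non-classical class do.

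Among the genes farthest apart between the ages in neutrophils was Stfa1, which encodes a stefin A, an inhibitor of cysteine proteases such as the cathepsins. It lies in a cluster of such genes on chromosome 16 (Stfa1 at chr16:36276951-36285373, plus strand, GRCm38). Levels are given as UMIs and as CPM, the UMIs of a gene scaled to a class total of 1000000. In mature neutrophil-like cells Stfa1 gave 4747 UMIs at P1 (11011 CPM) and 0 at P7 (0 CPM). It was detected in 132 of 137 cells at P1 (96.4%), with a median of 111 UMIs per 10000 in a cell, and in 0 of 47 cells at P7, which allows a share of cells with a UMI of up to 6.38% by counting error and sets no limit on cells expressing the gene. Against 3 UMIs over the P7 class (26.5 CPM), Stfa1 was at least 416-fold higher at P1. A neighbour, 2010005H15Rik (Csta2 in RefSeq), gave 882 UMIs at P1 (2046 CPM) and 0 at P7 (0 CPM). It was found in 80.3% of P1 cells and was at least 77.2-fold higher there.

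The other members of the cluster did not share this pattern. Stfa2l1 gave 3720 and 509 UMIs at P1 and P7, a log2 ratio of P1 over P7 of 0.94 (0.81 to 1.08). BC100530 gave 7126 and 575 UMIs (1.70 (1.58 to 1.83)), Gm5483 gave 5110 and 740 UMIs (0.86 (0.75 to 0.97)) and Gm5416 gave 514 and 126 UMIs, with an interval that included 0 (0.10 (-0.18 to 0.39)). Stfa2 and Stfa3 were higher at P1, with log2 ratios of 2.13 (1.89 to 2.39) and 2.15 (1.69 to 2.68). The 8 stefin genes other than Stfa1 and 2010005H15Rik summed to 45394 CPM at P1 and 18854 CPM at P7 in mature cells, a log2 ratio of 1.27. In granule-rich cells their sum was nearly level, at 98681 and 86668 CPM (0.19), while Stfa1 gave 5394 UMIs at P1 (19531 CPM) and 5 at P7 (51.6 CPM), a log2 ratio of 8.43 (7.34 to 10.19). There, 2010005H15Rik was again at 829 UMIs at P1 and 0 at P7 (at least 97.0-fold higher at P1). Outside the members, macrophages included, Stfa1 gave 1185 UMIs at P1 (20.7 CPM) and 16 at P7 (0.166 CPM). In those cells 2010005H15Rik gave 302 UMIs at P1 and 0 at P7, and BC100530 gave 2245 and 1487, so both genes were low or at 0 over the whole P7 library while BC100530 was read there. Of all 90-base windows in the annotated transcripts, 93.5% for Stfa1 and 92.1% for 2010005H15Rik occurred in no other gene, and for the other members 83.4% to 100% did. Reads from the rest can be shared between near-identical copies, so single values of this family are uncertain.

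**Figure D2:**
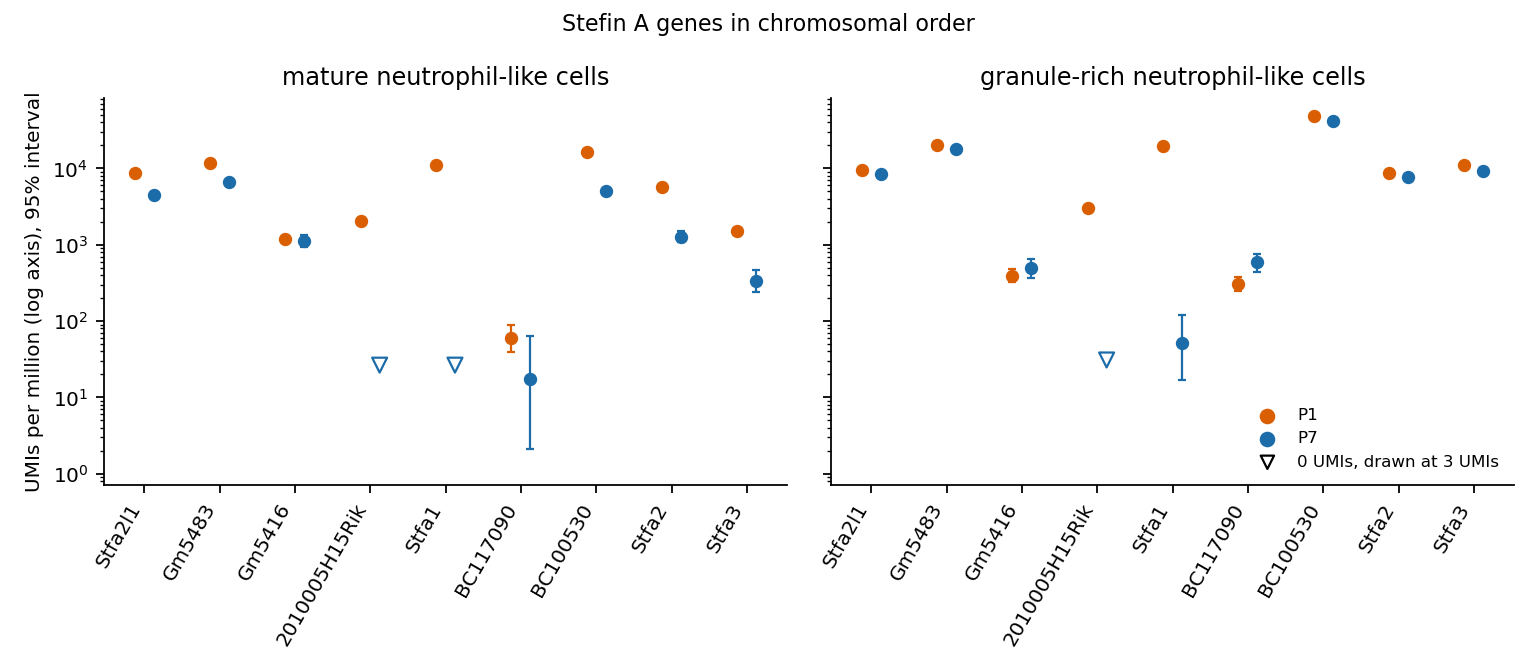
CPM (log axis) of each stefin gene, in chromosomal order, at P1 and P7 in mature (left) and granule-rich (right) neutrophil-like cells, with 95% counting intervals. In mature cells Stfa1 and 2010005H15Rik have values at P1 only, at 11011 and 2046 CPM, while Stfa2l1, Gm5483 and Gm5416 have values at both ages.

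The upstream sequences of these genes are shown because members with like sequences differed in their values. Of the 10 stefin genes, 9 had an entry in the RefSeq promoter table (GRCm38.p6). The 250 bases before the RefSeq start are given for 4 of them, 5′ to 3′. That start can differ from the start of the gene span used for the counts. Most of the Stfa1 window and part of the 2010005H15Rik window lie inside that span. Capitals mark the longest runs of letters that at least 7 of the 9 windows shared, each 13 bases long, ACTCAGCATTTCC, ACCTTTAAAACCC and GATCATTTCTTCT. Stfa1 (chr16:36276898-36277147, plus strand) and 2010005H15Rik (chr16:36221312-36221561, plus strand) were at 0 in mature cells at P7, and Stfa2l1 (chr16:36156561-36156810, plus strand) and Gm5416 (chr16:36210153-36210402, plus strand) were present at both ages.
Stfa1: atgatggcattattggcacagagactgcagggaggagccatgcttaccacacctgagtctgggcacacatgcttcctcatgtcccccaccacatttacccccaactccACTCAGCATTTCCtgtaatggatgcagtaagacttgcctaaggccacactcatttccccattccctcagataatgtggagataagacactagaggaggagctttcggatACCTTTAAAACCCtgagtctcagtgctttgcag
2010005H15Rik: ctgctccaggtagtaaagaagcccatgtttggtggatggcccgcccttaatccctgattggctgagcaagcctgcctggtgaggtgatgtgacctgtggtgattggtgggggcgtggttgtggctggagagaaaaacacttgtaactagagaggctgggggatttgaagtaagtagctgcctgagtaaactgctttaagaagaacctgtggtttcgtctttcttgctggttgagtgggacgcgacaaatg
Stfa2l1: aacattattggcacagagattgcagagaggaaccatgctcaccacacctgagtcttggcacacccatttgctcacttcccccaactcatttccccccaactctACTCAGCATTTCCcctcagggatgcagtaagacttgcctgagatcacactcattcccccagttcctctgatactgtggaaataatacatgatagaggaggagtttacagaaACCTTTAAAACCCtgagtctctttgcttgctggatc
Gm5416: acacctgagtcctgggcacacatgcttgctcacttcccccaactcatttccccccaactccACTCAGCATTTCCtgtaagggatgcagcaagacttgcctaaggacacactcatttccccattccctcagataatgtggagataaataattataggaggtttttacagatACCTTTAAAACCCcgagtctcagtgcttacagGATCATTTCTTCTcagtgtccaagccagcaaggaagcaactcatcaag

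ACCTTTAAAACCC, which contains the letters of a TATA-like element, was in all windows but those of Csta1 and 2010005H15Rik. ACTCAGCATTTCC was in all but Gm5483 and 2010005H15Rik, and GATCATTTCTTCT, which lies at or across the annotated start in most of these genes, in all but Csta1 and 2010005H15Rik. Searched on both strands, these runs were in 9, 10 and 10 of 32851 mouse promoter windows of 300 bases (0.0274%, 0.0304% and 0.0304%), and they do not overlap each other. In the Stfa1 sequence ACCTTTAAAACCC begins 33 bases before the start and ACTCAGCATTTCC 142 bases before it. Over the 300 bases the Stfa1 window was 79.2% identical to that of Stfa2l1 and 83.8% to that of BC100530, both of which were read at P7. The window of 2010005H15Rik was 46.5% to 50.7% identical to the others. Stfa1 and 2010005H15Rik thus shared their values at P7 without sharing these letters, and a match is a description of the sequence only.

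Over all 3057 genes with at least 20 UMIs in mature neutrophil-like cells, 7.13% were at least 2-fold higher at P1 and 8.9% at least 2-fold higher at P7, and the median log2 ratio was -0.18 (-0.04 when the libraries were scaled by the median ratio of genes). Besides the stefins, the genes higher at P1 included Gsr, glutathione reductase, which regenerates reduced glutathione. It gave 434 UMIs at P1 (1007 CPM) and 7 at P7 (61.8 CPM), a log2 ratio of 3.93 (2.97 to 5.35), and was found in 88.3% of cells at P1 and 14.9% at P7. The interquartile range of single cells at P1 was 5.51 to 14.5 UMIs per 10000, and no cell at P7 passed 5.44. Gsr was also higher at P1 in monocyte-like (1.92 (1.47 to 2.44)), non-classical (2.08 (1.58 to 2.66)) and granule-rich cells (1.64 (0.99 to 2.44)), but in macrophages its log2 ratio was only 0.32, and in all kept cells outside the members 0.36. This difference between cell classes was not tested.

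Retnlg, a resistin-like protein secreted by neutrophils and a gene of the rule, gave 6610 UMIs at P1 (15332 CPM) and 230 at P7 (2031 CPM), a log2 ratio of 2.91 (2.73 to 3.11). Its median in single cells was 69.1 UMIs per 10000 at P1 and 1.03 at P7, but the ranges overlapped, with a highest value of 231 at P7. In the 130 P1 and 46 P7 cells of the class that met the rule without Retnlg, its log2 ratio was 2.99 (2.79 to 3.20). Wfdc17, a small secreted protein with a whey acidic protein domain, gave 1288 UMIs at P1 (2988 CPM) and 32 at P7 (283 CPM) (3.38 (2.90 to 3.96)). Gm26740 gave 88 and 0 UMIs, at least 7.70-fold higher at P1. Ccnd2, cyclin D2, gave 50 and 1 UMIs, a log2 ratio of 3.14 (1.17 to 9.05). The alarmins S100a8 and S100a9, by contrast, differed less, with log2 ratios of 0.39 (0.34 to 0.45) and 0.58 (0.53 to 0.62). Il1b, the gene of interleukin-1 beta, was nearly level, at 5199 UMIs at P1 (12059 CPM) and 1539 at P7 (13591 CPM) (-0.17 (-0.25 to -0.09)).

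**Figure D3:**
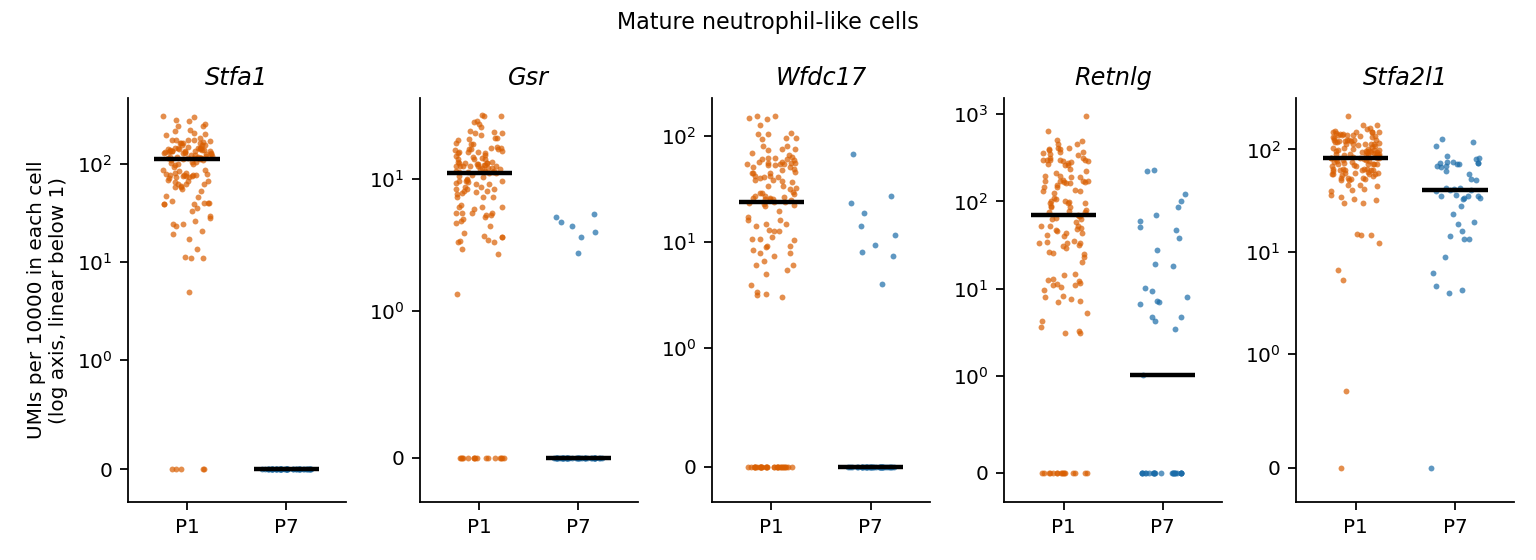
UMIs per 10000 (log axis, linear below 1) of 5 genes in every mature neutrophil-like cell at P1 (137) and P7 (47), with the median as a bar. All P7 cells are at 0 for Stfa1 but only 1 is for Stfa2l1, and no P7 cell exceeds 5.44 for Gsr.

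Secondary granule genes were sparse in the mature class, which follows in part from its naming by Ngp, Camp and Ltf. There, 6 of the 13 listed were measured. Against 7.13% of all genes of the class, 3 of these 6 were at least 2-fold higher at P1 (median 1.56). These were Ngp (81 and 3 UMIs, 2.61 (1.23 to 5.13)), Camp (34 and 1 UMIs, 2.59 (0.58 to 8.50)) and Lcn2 (343 and 15 UMIs, 2.54 (1.84 to 3.44)), a neutrophil granule protein, cathelicidin and lipocalin 2. Ngp was -0.69 when cells were thinned to 1000 UMIs, and Camp was -0.10 after cells with high doublet scores were removed. Most other neutrophil lists were near the background. Of 15 late neutrophil genes 1 (Retnlg) was at least 2-fold higher at P1 and 0 at P7 (median -0.21). No gene of the NADPH oxidase, which makes the oxidative burst, was 2-fold different among the 5 measured (median -0.14), nor any of 8 S100 and alarmin genes (0.04). Of 8 chemotactic receptors 1 was higher at P7 (Ptafr, the receptor of platelet-activating factor, -1.32 (-2.03 to -0.57)), and of 27 immediate early and heat shock genes 1 was higher at P1 and 2 at P7 (median -0.23).

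Other genes were higher at P7 in mature cells. Rgcc, a regulator of the cell cycle, gave 48 UMIs at P1 (111 CPM) and 72 at P7 (636 CPM), a log2 ratio of -2.51 (-3.07 to -1.97), and Atf3, a transcription factor induced by stress, gave 78 and 70 UMIs (-1.77 (-2.26 to -1.29)). Ccrl2, an atypical receptor that binds chemerin, gave 662 UMIs at P1 (1536 CPM) and 454 at P7 (4009 CPM) (-1.39 (-1.56 to -1.21)). Tsc22d3, which responds to glucocorticoids (-1.21 (-1.60 to -0.82)), and Myadm (-1.18 (-1.61 to -0.74)) were lower at P1 as well. Of 9 MHC class I genes 5 were at least 2-fold higher at P7 (median -1.08), against 8.9% of all genes of the class, with H2-K1, a class I heavy chain, at 94 UMIs at P1 (218 CPM) and 53 at P7 (468 CPM). Cells holding 3 or more marker genes of another cell type, mostly fibroblast genes, numbered 15 of 137 at P1 and 8 of 47 at P7. Without them, a choice made after the data were seen, 0 of 8 MHC class I genes passed 2-fold (median -0.35), and Plac8 went from -1.33 to -0.25. Acta2 (589 and 9 UMIs) and Mustn1 (64 and 1 UMIs), genes of muscle that were higher at P1, went to -0.069 and -3.50.

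In granule-rich neutrophil-like cells, which were only 9 at P7, the secondary granule genes were close at both ages. Ngp gave 11498 UMIs at P1 (41634 CPM) and 4686 at P7 (48359.6 CPM) (-0.22 (-0.27 to -0.17)), Camp gave 8200 UMIs at P1 (29692 CPM) and 3580 at P7 (36946 CPM) (-0.32 (-0.37 to -0.26)) and Ltf, lactoferrin, had a log2 ratio of -0.13 (-0.23 to -0.02). Of the 13 genes of the list 0 were at least 2-fold higher at P1 and 2 at P7 (median -0.22), beside 7.78% and 5.27% of 1593 genes of the class. These were Fcnb, ficolin B (7 and 16 UMIs, -2.65 (-4.23 to -1.34)), and Chil3 (396 and 284 UMIs, -1.03 (-1.25 to -0.81)), while Cd177 and Mmp8 of the same list were at 0.91 (0.33 to 1.58) and 0.88 (0.58 to 1.20). Cebpe, the transcription factor of granule gene expression, gave 102 and 69 UMIs (-0.95 (-1.40 to -0.48)), and Srgn, the proteoglycan core of granules, was at 1.27 (0.78 to 1.83). Retnlg was higher at P1, at 0.88 (0.78 to 0.98). Of the P7 UMIs of this class, 5.97% were haemoglobin, nearly all from 1 cell in which haemoglobin was 5777 of 16521 UMIs (35.0%). The part of that cell in the values was not tested.

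Monocyte-like cells differed by age in a gene of the rule, Chil3, which gave 456 UMIs at P1 (561 CPM) and 0 at P7 (0 CPM). It was found in 43.9% of P1 cells and in 0 of 34 at P7 (up to 8.82% of cells with a UMI), and was at least 69.9-fold higher at P1. Of these cells, 65 of 66 at P1 and 34 of 34 at P7 met the rule without Chil3, and they held 455 and 0 of its UMIs. The genes that define the class did not differ in this way. Ly6c2, which encodes Ly6C, gave 571 UMIs at P1 (703 CPM) and 267 at P7 (715 CPM) (-0.03 (-0.24 to 0.19)), Ccr2 gave 576 UMIs at P1 (709 CPM) and 337 at P7 (903 CPM) (-0.35 (-0.54 to -0.15)) and Lyz2, lysozyme, had a log2 ratio of -0.28 (-0.32 to -0.24). Of 5998 genes with at least 20 UMIs, 5.45% were at least 2-fold higher at P1 and 4.5% at P7, with a median of -0.03.

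Some genes of the neutrophil lineage were higher in monocyte-like cells at P1. Of 10 measured late neutrophil genes 3 were at least 2-fold higher at P1 and 0 at P7 (median 0.10), beside 5.45% of all genes of the class. In all kept cells outside the members 11 of 15 were at least 2-fold higher at P1 (median 1.46), against 8.23% of 16455 genes there. Stfa1 gave 317 and 0 UMIs and was found in 33.3% of P1 cells (at least 48.6-fold), and Stfa3 gave 150 and 0 UMIs. Another stefin, BC100530, had the opposite direction, with 4 and 13 UMIs (-2.71 (-4.90 to -1.13)), those at P7 from 1 cell. S100a9 gave 1143 and 214 UMIs (1.29 (1.08 to 1.51)), close to the log2 ratio of 1.39 for the same gene in all kept cells outside the members, where it is read at a low level. Of 7 primary granule genes 4 were at least 2-fold higher at P1 and 0 at P7 (median 1.07), among them Prtn3, proteinase 3 (195 and 14 UMIs, 2.63 (1.90 to 3.58)), Elane, neutrophil elastase (25 and 0 UMIs), Mpo, myeloperoxidase (61 and 13 UMIs, 1.07 (0.23 to 2.10)), and Ctsg, cathepsin G (46 and 8 UMIs, 1.33 (0.30 to 2.70)). With a mitochondrial limit of 10% Mpo was -0.43, Ctsg -1.10 and the list median -0.018. Cells with 3 or more progenitor genes numbered 4 of 66 at P1 and 1 of 34 at P7.

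Cell cycle genes were the list most often higher at P1 in monocyte-like cells. There, 13 of 15 were at least 2-fold higher at P1 and 0 at P7, against 5.45% and 4.5% of all genes. The median was 2.55, or 2.28 with genes at 0 set to their bound. Pclaf, which binds the replication clamp, gave 108 and 0 UMIs (at least 16.5-fold), Hist1h1b, a linker histone, gave 90 and 0 UMIs (at least 13.8-fold), and Dut, which removes dUTP, gave 56 and 1 UMIs (4.11 (2.15 to 10.01)). The UMIs came from few cells. At P1 15 of 66 cells held 3 or more genes of the list and 93.6% of its UMIs, and at P7 4 of 34 did. Of these, 9 and 2 also held 3 or more genes of another cell type, and their median depth was 16642 and 16216 UMIs, against 10958 and 10252 in the rest of the class. Removal of cells with high doublet scores left 4 measured genes with a median of 0.89. In both neutrophil-like classes together the list ran the other way. There, 3 of 3 measured genes were at least 2-fold higher at P7 (median -3.54), against 6.25% of all genes. In granule-rich cells at P7, 1 of 9 cells held 113 of the 117 UMIs of the list.

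Il1b was higher at P1 in this class, with 399 UMIs at P1 (491 CPM) and 33 at P7 (88.4 CPM) (2.45 (1.96 to 3.03)). Other soluble factors were spread unevenly over cells. Gzma, granzyme A of cytotoxic lymphocytes, gave 91 and 0 UMIs, all from 1 cell, and Ccl5 gave 77 and 0 UMIs. Without cells holding genes of another type, neither Gzma nor Ccl5 was left in the class at P1. At P7, Spp1, osteopontin, gave 14 and 179 UMIs from 5 and 2 cells (-4.75 (-5.70 to -4.01)).

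At P7 the genes higher in monocyte-like cells included several of other blood cells. Cd7, a surface protein of lymphoid cells, gave 6 and 58 UMIs (-4.29 (-5.90 to -3.19)). Hdc, histidine decarboxylase, which makes histamine, gave 28 and 79 UMIs (-2.60 (-3.30 to -1.98)), Cyp11a1, an enzyme of steroid synthesis, gave 20 and 52 UMIs from 1 and 3 cells (-2.48 (-3.32 to -1.73)), and Tcf4, a factor of plasmacytoid dendritic cells, gave 51 and 75 UMIs (-1.67 (-2.22 to -1.15)). The chemokine genes Ccl4 (159 and 406 UMIs, -2.47 (-2.75 to -2.21)) and Ccl3 (255 and 314 UMIs, -1.42 (-1.67 to -1.18)) were also higher at P7. The marker lists of other leukocytes did not all point one way. Genes of NK or innate lymphoid cells summed to 149 CPM at P1 and 13.4 CPM at P7 (most at P1 from Gzma). Other lists were higher at P7, with mast cell or basophil genes summing to 239 CPM at P1 and 335 CPM at P7 (most from Mcpt8), plasmacytoid genes to 158 and 423 CPM (Tcf4 the most abundant), and genes of type 2 conventional dendritic cells to 105 and 188 CPM. Cells with 3 or more mast cell or basophil, plasmacytoid or type 2 dendritic genes were 1 and 3, 1 and 3, and 1 and 4 in number, and their part in the values was not tested beyond leaving them out. Without cells holding genes of another type, 23 of 66 and 17 of 34, Hdc went to 2.09 and Ccl3 to 0.95, each with the opposite sign. A predicted gene, Gm10320, gave a single UMI at P1 and 56 UMIs at P7 (-6.36 (-12.26 to -4.39)), and its UMIs in macrophages were 0 and 108. Rgcc, higher at P7 in the mature neutrophils, was so here too (17 and 76 UMIs, -3.25 (-4.13 to -2.51)).

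**Figure D4:**
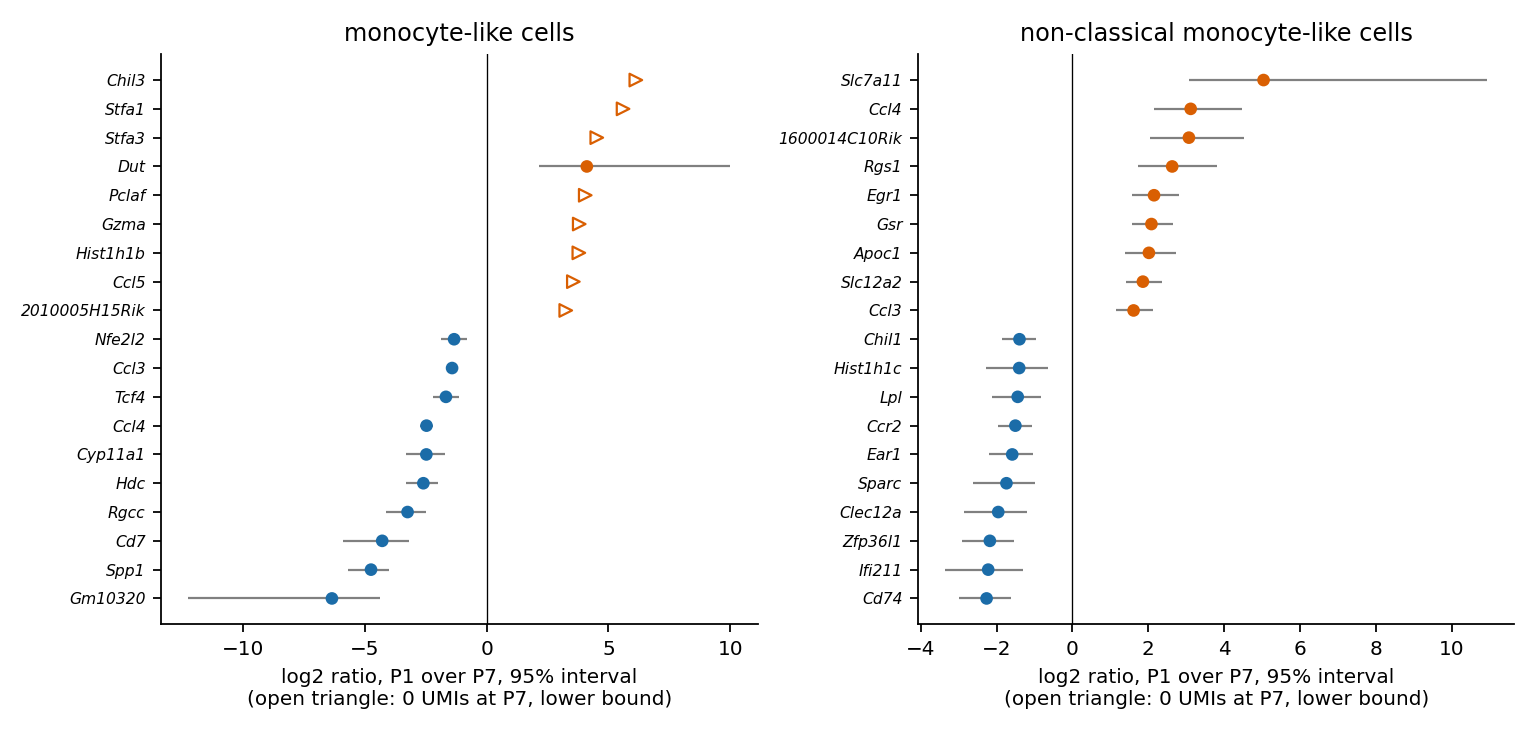
Log2 ratio of P1 over P7, with 95% counting intervals, for genes with the widest gaps in monocyte-like (left) and non-classical monocyte-like (right) cells. Open triangles are lower bounds for genes at 0 UMIs at P7. Ccl3 and Ccl4 lie to the left of 0 in the first class (-1.42 and -2.47) and to the right in the second (1.61 and 3.12).

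Non-classical monocyte-like cells, the class most even in number between ages, were higher at P1 for Slc7a11, the cystine transporter that feeds glutathione synthesis. It gave 50 UMIs at P1 (173 CPM) and 1 at P7 (3.53 CPM), a log2 ratio of 5.04 (3.07 to 10.94), and was found in 52.8% of cells at P1 and 2.50% at P7. Gsr in this class gave 162 UMIs at P1 (560.0 CPM) and 37 at P7 (131 CPM) and its single-cell median was 5.72 and 0.967 UMIs per 10000. Ccl4 gave 75 and 8 UMIs (3.12 (2.14 to 4.46)) and Ccl3 148 and 47 UMIs (1.61 (1.14 to 2.13)), and Egr1, an immediate early transcription factor, gave 129 and 28 UMIs (2.15 (1.57 to 2.82)). Slc12a2, a sodium, potassium and chloride cotransporter (1.86 (1.41 to 2.35)), Rgs1, a regulator of G protein signalling (2.63 (1.72 to 3.82)), and Apoc1, an apolipoprotein (2.02 (1.40 to 2.73)), were higher at P1 as well. Chil3 gave 38 and 0 UMIs, at least 12.4-fold higher at P1, and the 35 and 40 cells that met the rule without it held 34 and 0. Of 3941 genes with at least 20 UMIs, 3.5% were at least 2-fold higher at P1 and 5% at P7, with a median of -0.03.

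At P7 the non-classical cells were higher for Cd74, the invariant chain of MHC class II (23 UMIs at P1 (79.5 CPM) and 110 at P7 (389 CPM), -2.27 (-3.01 to -1.63)), for Ccr2 (58 and 162 UMIs, -1.51 (-1.97 to -1.07), or -1.22 (-1.76 to -0.70) in the 32 and 23 cells that met the rule without it) and for Lpl, lipoprotein lipase (29 and 78 UMIs, -1.44 (-2.13 to -0.83)). Zfp36l1, which promotes decay of mRNA (-2.18 (-2.90 to -1.55)), Clec12a, an inhibitory lectin (-1.96 (-2.85 to -1.20)), and Ear1, a ribonuclease (-1.59 (-2.21 to -1.03)), followed the same direction. Of 10 measured chemotactic receptors 1 was at least 2-fold higher at P1 (Ccr1, 1.55 (0.34 to 3.09)) and 4 at P7, against 3.5% and 5% of all genes. The 4 were C3ar1 (-1.53 (-3.43 to -0.08)), Ccr2, a gene of the rule, Cxcr4 (-1.23 (-2.68 to -0.02)) and Fpr1 (-1.14 (-2.11 to -0.27)). Sparc, a matrix protein of fibroblasts, gave 18 and 60 UMIs (-1.74 (-2.62 to -0.99)), and fibroblast genes summed to 162 CPM at P1 and 442 CPM at P7. Cells holding 3 or more fibroblast genes were 4 of 36 at P1 and 17 of 40 at P7, and without cells holding genes of another type Sparc was -1.06. When the class was held to cells with fewer than 2 macrophage genes, Ccl4 was -3.76, Cd74 0.23 and Ifi211, a protein of the interferon-inducible p200 family (11 and 52 UMIs, -2.22 (-3.36 to -1.32)), 0.64, each with the opposite sign.

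Interferon response genes were more often at least 2-fold higher at P1 than at P7 in the monocyte classes and in macrophages. In monocyte-like cells 9 of 17 measured were at least 2-fold higher at P1 and 0 at P7 (median 1.61), against 5.45% of all genes. Rtp4, a chaperone of receptors, gave 113 UMIs at P1 (139 CPM) and 7 at P7 (18.8 CPM) (2.80 (1.80 to 4.24)), Zbp1, a sensor of nucleic acid, gave 98 and 10 UMIs (2.11 (1.23 to 3.28)), and Irf7, the factor that amplifies type I interferon, gave 129 and 14 UMIs (2.04 (1.28 to 2.99)). Oasl2, of the oligoadenylate synthetase family, and Ifi204, a DNA sensor, were at 2.58 (1.42 to 4.37) and 1.86 (1.07 to 2.86). In non-classical cells 8 of 14 were at least 2-fold higher at P1 and 0 at P7 (median 1.37), against 3.5% and 5% of all genes. Among the 8 were Oasl2 (22 and 1 UMIs, 3.87 (1.80 to 9.79)), Rtp4 (36 and 4 UMIs, 2.99 (1.66 to 5.09)) and Zbp1 (38 and 10 UMIs, 1.84 (0.86 to 3.06)).

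No difference between classes was tested for this list. Macrophages had 16 of 19 genes at least 2-fold higher at P1 (median 1.98), against 4.09% of all genes of that class higher at P1 and 3.84% at P7, and all kept cells outside the members, macrophages included, had 9 of 24 (0.58), against 8.23% of genes higher at P1 and 4.21% at P7. In both neutrophil-like classes together 0 of 11 were at least 2-fold different in either direction (median 0.18), beside 6.48% of 4030 genes higher at P1 and 6.25% at P7. Taken apart, in mature cells 0 of 7 measured were at least 2-fold higher at P1 and 2 at P7, and in granule-rich cells 2 were higher at P1, Irf7 (21 and 0 UMIs) and Ifi27l2a, an interferon-inducible protein (43 and 5 UMIs, 1.47 (0.26 to 3.29)), and 0 at P7, with all 7 ratios above 0. A monocyte-like cell held a median of 11.5 of the 24 genes at P1 and 6 at P7, and a non-classical cell 8 and 5. Thinned to 1000 UMIs, the means were 3.56 and 2.39 in monocyte-like cells, 3.86 and 2.55 in non-classical cells and 1.56 and 1.61 in mature neutrophil-like cells. The list medians depended on the low genes. After thinning only 4 genes of the list could be measured in each monocyte class, with medians of 0.40 and 0.43, and in non-classical cells the 4 most abundant, each past 100 UMIs, had a median of 0.28. Held to cells with fewer than 2 macrophage genes, the non-classical class had a list median of -0.015 over 4 measured genes.

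**Figure D5:**
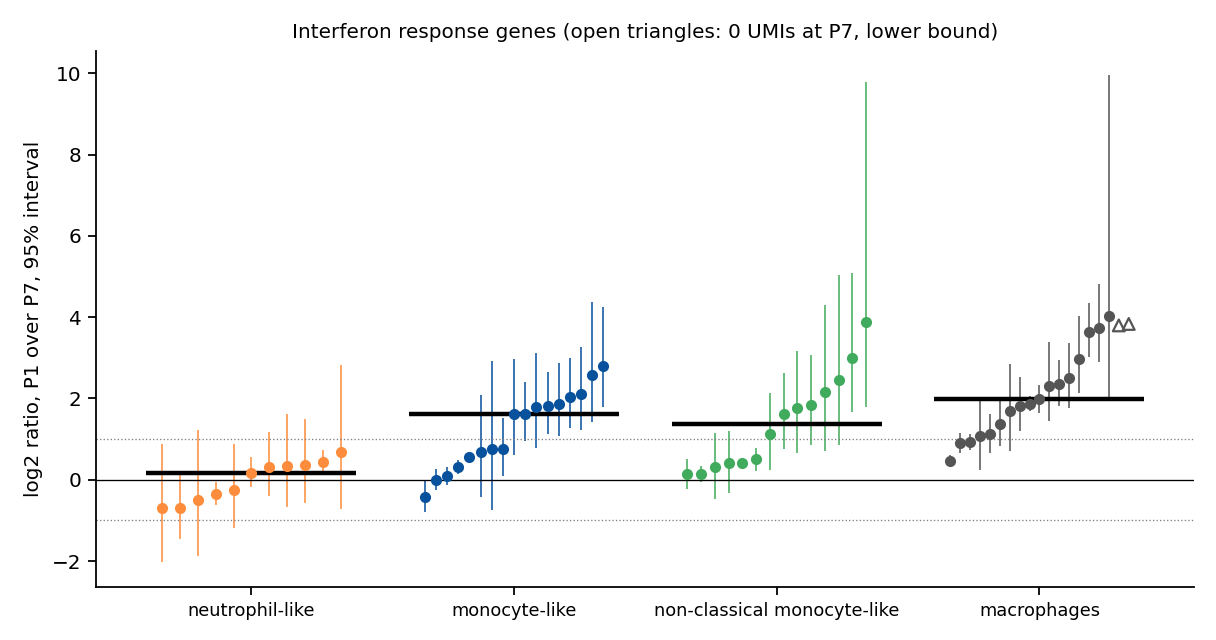
Log2 ratio of P1 over P7 of each interferon response gene with at least 20 UMIs, with 95% counting intervals, in neutrophil-like, monocyte-like and non-classical monocyte-like cells and in macrophages. Most points lie above 0 in the monocyte classes and macrophages (medians 1.61, 1.37 and 1.98) and on both sides of 0 in neutrophil-like cells (0.18).

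The measured genes of HIF signalling and glycolysis, which were of interest to the study in other cells of these hearts, were close to the background in all classes. Egln1, Egln3, Pdk1, Pfkfb3 and Ndrg1 of this list had too few UMIs to be measured in any class of members. Nothing can be said of them here. Vegfa, which the paper names as a HIF-induced gene, was in the cytokine and chemokine list instead. It was measured only in non-classical cells, at -5.39, without a UMI at P1, so the value depends on the counts added. In mature neutrophil-like cells 1 of 14 was at least 2-fold higher at P1 (Slc2a3, a glucose transporter, 104 and 11 UMIs, 1.26 (0.41 to 2.36)) and 1 at P7 (Eno1, enolase, 68 and 37 UMIs, -1.06 (-1.65 to -0.43)), with a median of -0.24. With both neutrophil-like classes together 0 of 16 was higher at P1 and 1 at P7 (Egln2, -1.07), with a median of -0.22. In monocyte-like cells 0 of 16 was higher at P1 and 1 at P7 (Hk2, a hexokinase, -1.12 (-2.09 to -0.15)), with a median of 0.11. In non-classical cells 0 of 13 was higher at P1 and 1 at P7 (Pfkl, a phosphofructokinase, -2.07 (-4.22 to -0.60)), with a median of -0.07.

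Marker lists of other leukocytes that lack a cluster here were held by few members. Cells with 3 or more markers numbered 3 at P1 and 2 at P7 for type 1 conventional dendritic cells, and 1 and 0 for NK or innate lymphoid cells. Prg2 and Epx, which define eosinophils, were at 0, and no cell held 3 genes of the eosinophil or of the migratory dendritic cell list. At a clustering resolution of 2.0, however, 12 cells at P1 and 13 at P7 formed a cluster without a name, led by Mcpt8, Siglech, H2-Ab1 and H2-Aa, genes of basophils, plasmacytoid dendritic cells and MHC class II. The sex-linked genes separated the pools. In monocyte-like cells Xist, transcribed from the inactive X chromosome, gave 405 and 0 UMIs, and the Y-linked Ddx3y gave 0 and 38 UMIs, and the same direction held in each of the 4 classes. The part of sex in the differences above was not tested, and it cannot be told apart from age in these libraries.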

How the data were processed

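Libraries were made with 10x Genomics 3 prime chemistry. The authors deposited, for each library, UMI counts by gene for the 7836 and 9077 listed barcodes, not normalised. The submitters' processing notes name Cell Ranger 3.1.0 and mm10 (GRCm38). Barcodes with 200 to 8000 genes and at most 20% mitochondrial UMIs were kept. Members were clustered over both libraries on counts scaled to 10000 per cell, with 1000 variable genes, 20 principal components, 20 neighbours and Louvain clustering at a resolution of 1 (python 3.11.15, numpy 2.4.6, scipy 1.17.1, pandas 2.3.3, igraph 0.11.9, matplotlib 3.10.9). Compared gene lists, sex-linked, mitochondrial, ribosomal and haemoglobin genes stayed out of the variable genes, but genes in no list, such as Stfa1 and Gsr, were not kept out. A cluster took a name when at least 3 of its markers were 2-fold above all other kept cells and found in 10% of its cells, and no other marker list had more genes among its top 10 by fold. Doublets were limited only by the gene maximum, and as an alternative the top 6% by a simulated-doublet score were taken out per library.

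Each class was summed within a library, with exact Poisson intervals for sums, Clopper-Pearson intervals for shares and conditional binomial intervals for ratios, at 95%. A cell is not a replicate, so no test was made. The log2 ratio was of CPM (UMIs scaled to a class total of 1000000) with 0.5 counts added. Genes at 0 in a library were bounded with 3 UMIs over the class. Genes with at least 20 summed UMIs were measured. Genes named were taken from those of the rule, the 10 widest ratios in each direction with at least 50 UMIs and an interval excluding 0, the 5 widest per list, the most abundant genes, and checks of sex, haemoglobin and other cell types. Not every gene in these groups is named. The stefin genes and the windows searched in promoters were chosen after their values were seen. Members and lists were chosen with earlier results of these data known. The code was tested on simulated data. Alternatives changed the scaling, the counts added, the filters, the depth (1000 UMIs per cell), the rule, the clustering and doublet removal. Leaving out cells with 3 or more genes of another cell type, taking the mature cluster alone, and reading a gene of the rule only in members that met it without that gene, were added after the data had been seen.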

Additional observations from a re-analysis of the deposited data

Results flagged for a closer look

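Several genes had log2 ratios of opposite sign in classes of members. The difference between classes was not tested for any of them, and each alternative that turned a sign is given beside it. All values are log2 ratios of P1 over P7. The chemokine genes Ccl3 and Ccl4 were at -1.42 and -2.47 in monocyte-like cells and at 1.61 and 3.12 in non-classical cells. Ccl3 in monocyte-like cells was at 0.95 without cells holding genes of another type and 0.054 by gates, and Ccl4 in non-classical cells was at -3.76 with fewer than 2 macrophage genes. Chil3, the chitinase-like gene, was at 8.71 in monocyte-like and 6.23 in non-classical cells, where the P7 count was 0 and the value depends on the 0.5 counts added, but at -1.03 in granule-rich neutrophil-like cells. Irf7, the interferon regulatory factor, was at 2.04 in monocyte-like, 1.12 in non-classical and 3.92 in granule-rich cells (21 and 0 UMIs), and at -1.71 in mature neutrophil-like cells. Plac8 was at -1.33 in mature and 1.22 in granule-rich neutrophil-like cells, but at -0.25 in mature cells without those of another type. Hdc, histidine decarboxylase, was at 1.18 in mature neutrophil-like and -2.60 in monocyte-like cells, and at 2.09 in the latter without cells of another type. Birc5, a gene of cell division, was at -3.99 in granule-rich cells (3 and 19 UMIs, from 1 cell in each library) and 3.60 in monocyte-like cells (1.29 without cells of another type). Acta2, smooth muscle actin, was at 4.03 in mature neutrophil-like and -1.99 in non-classical cells, and at -0.069 in the former without cells of another type.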

How the results depend on the processing

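No paired analysis was possible because each age was 1 library. Counting intervals do not cover variation between animals. Median UMIs per cell were lowest in mature neutrophil-like cells (2758 and 2253), and summed UMIs per class in granule-rich cells (276172 and 96899). Over named genes, 971 of 1129 values under alternatives stayed within their counting interval and 13 changed sign, and over lists 931 of 975 and 3. The cause of each move was not tested beyond the setting itself.

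Asking for 3 of the 6 myeloid genes gave a member share 4.82-fold larger at P1. Neutrophil-like cells were 71.0% of P1 members by gene gates without clusters and 54.2% of P7 members without cells holding genes of another type. The neutrophil-like genes at least 2-fold higher at P1 (261) were 133 with 2 counts added, 172 without cells of another type and 82 after thinning. Those higher at P7 (252) were 446 by mean per-cell CPM and 96 after thinning. For monocyte-like genes, 327 and 270 became 45 and 33 after thinning, and 144 were higher at P7 in cells with fewer than 2 macrophage genes. The interferon medians were 0.40 and 0.43 in monocyte-like and non-classical cells after thinning, and in non-classical cells -0.015 with fewer than 2 macrophage genes and 0.28 at 100 UMIs or more. With fewer than 2 macrophage genes, Ccl4, Cd74, Ifi211 and Slfn5 in non-classical cells were at -3.76, 0.23, 0.64 and -3.27. Without cells of another type, Hdc and Ccl3 in monocyte-like cells were at 2.09 and 0.95, and Acta2 and Mustn1 in mature neutrophil-like cells at -0.069 and -3.50. By gates without clusters, Ccl3 was at 0.054 and the primary granule median at -0.21 in monocyte-like cells. At a mitochondrial limit of 10% that median was -0.018, Mpo -0.43 and Ctsg -1.10. In mature neutrophil-like cells Ngp was -0.69 after thinning and Camp -0.10 without high doublet scores. At a resolution of 2.0 the mature class divided into clusters of 70 cells from P1 and 0 from P7, 18 and 42, and 46 and 4, and 2 clusters were left unnamed, 1 with mostly non-classical monocyte markers and 1 led by Mcpt8, Siglech and H2-Ab1.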

Other observations

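Lists not described above were mostly near the background, but not the cytokine and chemokine list in the monocyte classes. In monocyte-like cells 4 of 13 were at least 2-fold higher at P1 and 4 at P7 (median -0.13), against 5.45% and 4.5% of all genes. In non-classical cells 3 of 10 were higher at P1 and 1 at P7 (Vegfa, -5.39), with a median of 0.41, against 3.5% and 5% of all genes. In mature neutrophil-like cells 1 of 9 adhesion genes was at least 2-fold higher at P7 (Itgax, an integrin chain, -3.07 (-4.64 to -1.76)) and 0 at P1 (median -0.58), and of 11 cytokine and chemokine genes 1 was higher at P1 and 2 at P7 (-0.23). Of 10 survival genes 1 was higher at P1 (Bcl2l11, which promotes apoptosis, 1.38 (0.19 to 3.18)) and 1 at P7 (Bcl2a1a, which opposes it, -1.69 (-2.72 to -0.62)). Receptor genes for Fc and microbial patterns had 0 of 14 higher at P1 and 1 at P7 (Clec4n, -1.06 (-2.03 to 0.02)). Of 8 myeloid transcription factors Fli1 was at 1.05 (-0.46 to 3.61) and Cebpe at -1.29 (-2.08 to -0.46). Of 7 interferon genes in this class 0 were higher at P1 and 2 at P7, Irf7 and Isg15 (-1.13 (-1.92 to -0.27)).

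In monocyte-like cells 0 of 14 myeloid transcription factors was 2-fold different (-0.20), and neither was any of 10 survival genes (-0.04) or 7 MHC class II genes (0.43). Among 18 receptor genes for Fc and microbial patterns 2 were higher at P1, Fcgr4 (2.41 (0.96 to 4.95)) and Trem3 (1.53 (0.28 to 3.36)), and 0 at P7. Beside 5.45% of all genes of the class, 4 of 6 secondary granule genes were at least 2-fold higher at P1 (median 1.62). These were Chil3, a gene of the rule with 0 UMIs at P7, Wfdc21 (2.79 (1.63 to 4.57)), Lcn2 (1.75 (0.95 to 2.75)) and Mmp8 (1.50 (0.80 to 2.33)). In the endothelial cells picked above, Ngp of this list was at 3.17 CPM at P1 and 0.943 CPM at P7. Chil3 was at 0.252 and 0.0314 CPM there, from 4 and 1 cells. Whether free RNA added to the values in monocyte-like cells was not tested.

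The imprinted noncoding gene H19 was higher at P1 in monocyte-like (33 and 2 UMIs, 2.62 (0.96 to 6.03)) and mature neutrophil-like cells (54 and 6 UMIs, 1.14 (0.03 to 2.75)), and Meg3, of the same list of 10 foetal genes, in the latter (68 and 2 UMIs, 2.85 (1.25 to 6.23)). In all kept cells outside the members 9 of the 10 were at least 2-fold higher at P1 (median 1.85), against 8.23% of all genes there. Cd3d, a gene of T cells, gave 280 UMIs at P1 and 125 at P7 in members, all in neutrophil-like cells, while Cd3e was at 0 by the rule. The neutrophil-like cells held 707287 UMIs in all at P1 and 210135 at P7, so the larger Cd3d count at P1 is not a higher level.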
